A study of Equus caballus with 33 samples.

Results

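Collagen genes other than those of the cartilage types II, IX, X and XI were described in cartilage explants of the horse. A gene was a member if a probe set had that symbol alone in the platform annotation and the symbol had the form COL, number, A, number. This gave 35 genes of the 16661 named on the array, each with 1 probe set. COL7A1 and COL20A1 were not analysed here. Following textbook groupings, the members were taken as 8 fibrillar, 8 basement membrane zone, 6 FACIT, 5 beaded, 4 transmembrane and 4 other chains.

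The explants came from articular cartilage at the distal end of the main metacarpal bone (the cannon bone of the forelimb) of 3 horses in which no joint disease was evident, collected after death. After 48 h in medium, they were cultured with recombinant equine interleukin-1β (IL-1β), a cytokine that stands in for joint inflammation in culture, at 10 ng/mL or without it. Stimulated and unstimulated explants were harvested after 3, 9, 15, 21 and 27 days, and unstimulated ones also at day 0, which gave 11 groups of 3 arrays. Each sample held 2 explants, which were digested with trypsin and collagenase before lysis. The same replicate number in different groups was taken as the same horse. The genotype and age of the horses are not given in the sources used here.

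Collagens hold triple helices of 3 chains, alike or different. Many are secreted and assemble into fibrils, networks or beaded filaments. In cartilage, the fibrils are built mainly of type II with types IX and XI, while type VI filaments, basement membrane components and collagens XII and XIV surround the cells or decorate the fibrils. Type I and type III collagen are the main fibrillar collagens of bone, tendon and skin, and type I is used as a sign of chondrocytes that have lost their phenotype. FACITs are collagens with interrupted helices that bind the surface of fibrils. The roles given here are known mainly from human and mouse.

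Values are log2 expression, and a difference is the stimulated less the unstimulated mean, with its standard error from a limma fit over all 33 arrays. A gene passed at a Benjamini-Hochberg adjusted p under 0.05 over 25923 probe sets. Array medians lay between 5.16 and 5.38, and the number of arrays limits the precision. Unstimulated day 27 replicate 3 was the array farthest from the centre on the second principal component, which held 8.42% of the variance. Its gap to the next array is not given here. Of the 9 measured chondrocyte markers 8 had means above the median probe set, with averages per array of 8.79 to 9.37 in unstimulated and 6.61 to 8.31 in stimulated explants. Arrays of 1 replicate number at different days counted as independent in the average over days.

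Averaged over the 5 days, a minority of these collagens passed, at a share near that of all probe sets, with 8 lower and 3 higher. COL8A1, COL14A1, COL12A1, COL5A2, COL16A1, COL8A2, COL27A1 and COL18A1 fell, by 0.18 to 1.52. COL6A3, COL15A1 and COL3A1 rose, by 0.78, 0.62 and 0.30, against unstimulated explants of the same days. The same 3 were lower at day 27 than at day 0 without IL-1β (-2.59, -1.30 and -1.03). All stimulated COL6A3 values (8.82 to 10.38) lay below those of day 0 (10.95 to 11.34). Those of COL15A1 (4.90 to 6.36) and COL3A1 (6.10 to 7.67) overlapped with day 0 (6.34 to 7.78 and 6.68 to 7.98). In all, 11 of 35 members passed (31.4%), against 30.8% of all probe sets, so that the share was near the background. Of the 35 members 8 fell, where 15.3% of all probe sets were lower, and 3 rose, where 15.6% were higher. Whether this split differed from that of all probe sets was not tested. With arrays centred on their medians the split over all probe sets moved from 4036 higher and 3955 lower to 4678 and 2971, and 3 members rose and 7 fell. The median difference was -0.07 over the members and -0.04 over all probe sets. All 11 were among the 18 members whose mean lay above the median probe set (5.27), and 0 of the 17 dimmer members passed. Of the 12961 probe sets above that median, 52.7% passed in a separate fit, adjusted over these alone. The share of them that passed in the main fit was not computed. Each array holds RNA of whole explants, so that fewer cells of a type and less RNA per cell cannot be told apart.

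**Figure D1:**
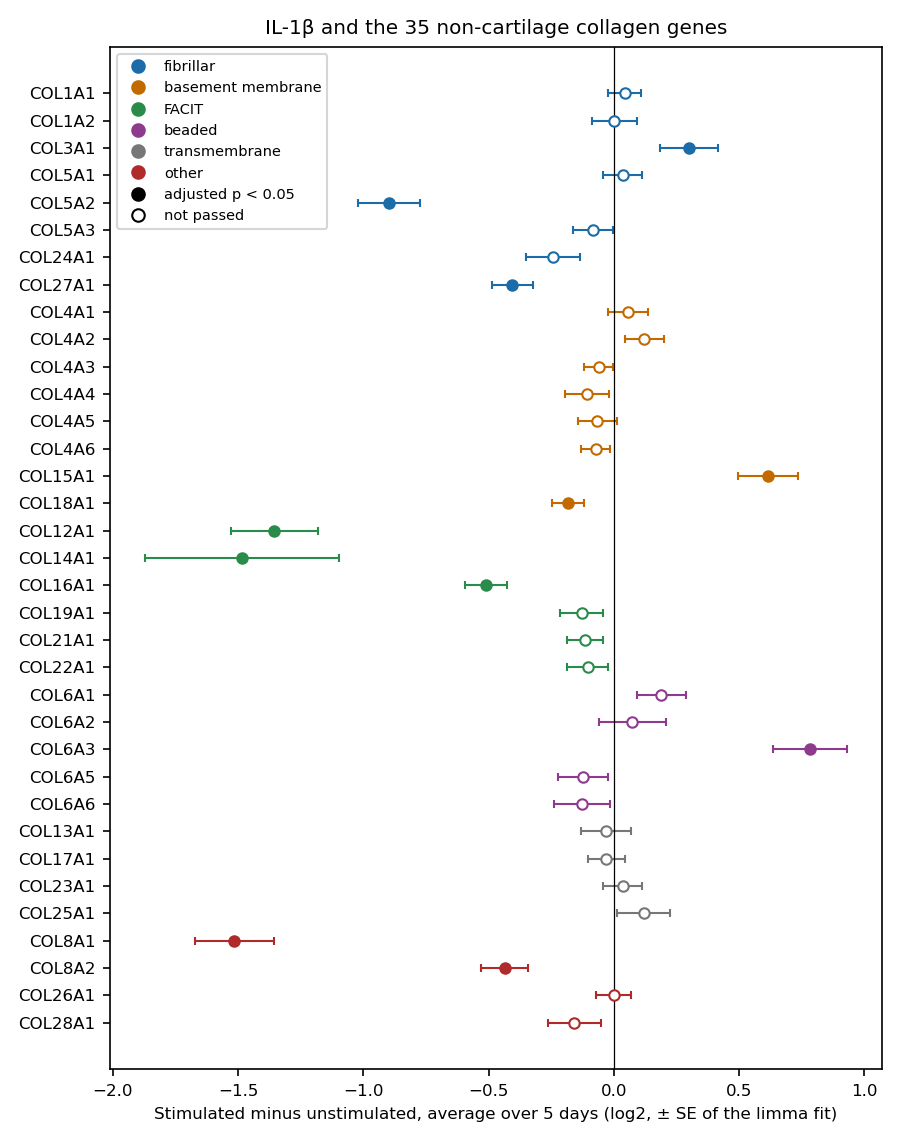
Difference between stimulated and unstimulated explants, averaged over 5 days (log2, horizontal axis), for each of the 35 collagen genes, coloured by class. Bars are standard errors of the limma fit and filled points passed at an adjusted p under 0.05; COL8A1 lies furthest left at -1.52 and COL6A3 furthest right at 0.78.

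The short-chain, network-forming collagen VIII, known from the cornea and vessel walls, held the member with the smallest adjusted p. COL8A1 values in unstimulated explants, replicates 1 to 3, were 6.40, 7.71 and 6.77 at day 0, 6.98, 7.63 and 6.92 at day 3, 7.59, 7.53 and 6.67 at day 9, 6.85, 8.01 and 6.99 at day 15, 7.52, 8.07 and 7.48 at day 21, and 8.07, 7.23 and 7.99 at day 27. In stimulated explants they were 6.79, 6.10 and 5.71 at day 3, 5.87, 5.89 and 6.04 at day 9, 6.02, 5.39 and 5.70 at day 15, 5.57, 6.31 and 6.32 at day 21, and 5.45, 5.59 and 6.04 at day 27. The stimulated arrays were the lower ones at every day, with no overlap between the groups of a day. COL8A1 fell by 1.52 ± 0.16 on average, or 2.86-fold (adjusted p = 1.1e-08), and was lower in 15 of 15 pairs matched by day and replicate number. The partner chain gene COL8A2 fell by 0.44 ± 0.09 (adjusted p = 0.000578), and was lower in 13 of 15 pairs.

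Of the 6 FACIT genes 3 fell, 0 rose and 3 did not pass, where 15.3% of all probe sets were lower and 15.6% higher. COL12A1 encodes a FACIT of tendon, ligament and perichondrium. Its values in unstimulated explants, replicates 1 to 3, were 7.04, 7.89 and 8.11 at day 0, 8.36, 8.66 and 7.48 at day 3, 7.61, 7.18 and 7.17 at day 9, 6.80, 7.16 and 6.78 at day 15, 7.05, 7.41 and 6.86 at day 21, and 7.76, 7.49 and 6.46 at day 27. With IL-1β they were 8.48, 6.96 and 6.74 at day 3, 5.46, 5.51 and 6.07 at day 9, 5.73, 5.43 and 5.33 at day 15, 6.15, 5.62 and 5.24 at day 21, and 6.20, 5.54 and 5.46 at day 27. Replicate 1 was high in both groups at day 3, where the groups overlapped, while every stimulated array from day 9 on lay below every unstimulated one. COL12A1 fell by 1.36 ± 0.17 on average (adjusted p = 3.93e-07), and was lower in 14 of 15 pairs.

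COL14A1 encodes the closely related FACIT undulin, which binds fibrils through decorin. Its values in unstimulated explants, replicates 1 to 3, were 5.74, 5.33 and 4.48 at day 0, 5.28, 7.50 and 6.27 at day 3, 7.09, 8.16 and 4.96 at day 9, 7.14, 7.55 and 5.25 at day 15, 7.25, 7.67 and 4.63 at day 21, and 8.06, 7.37 and 5.19 at day 27. The stimulated values were 5.40, 7.58 and 4.35 at day 3, 6.10, 5.60 and 5.14 at day 9, 5.53, 5.31 and 4.05 at day 15, 5.48, 4.96 and 4.70 at day 21, and 4.25, 4.27 and 4.38 at day 27. Replicate 3 was the lowest unstimulated array at every time except day 3, and the groups overlapped at each day except day 27. COL14A1 fell by 1.49 ± 0.39 on average (adjusted p = 0.00364), and was lower in 11 of 15 pairs. The call was lost without replicate 1 (adjusted p = 0.0677) and without replicate 2 (adjusted p = 0.0859). COL16A1, a FACIT that is made by chondrocytes and dermal cells, fell by 0.51 ± 0.08 (adjusted p = 2.24e-05). It ranged from 5.25 through a median of 5.49 to 5.88 over the 15 stimulated arrays, and from 5.12 through 6.06 to 6.38 over the 18 unstimulated ones. COL19A1, COL21A1 and COL22A1 did not pass, at -0.13, -0.12 and -0.10.

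**Figure D2:**
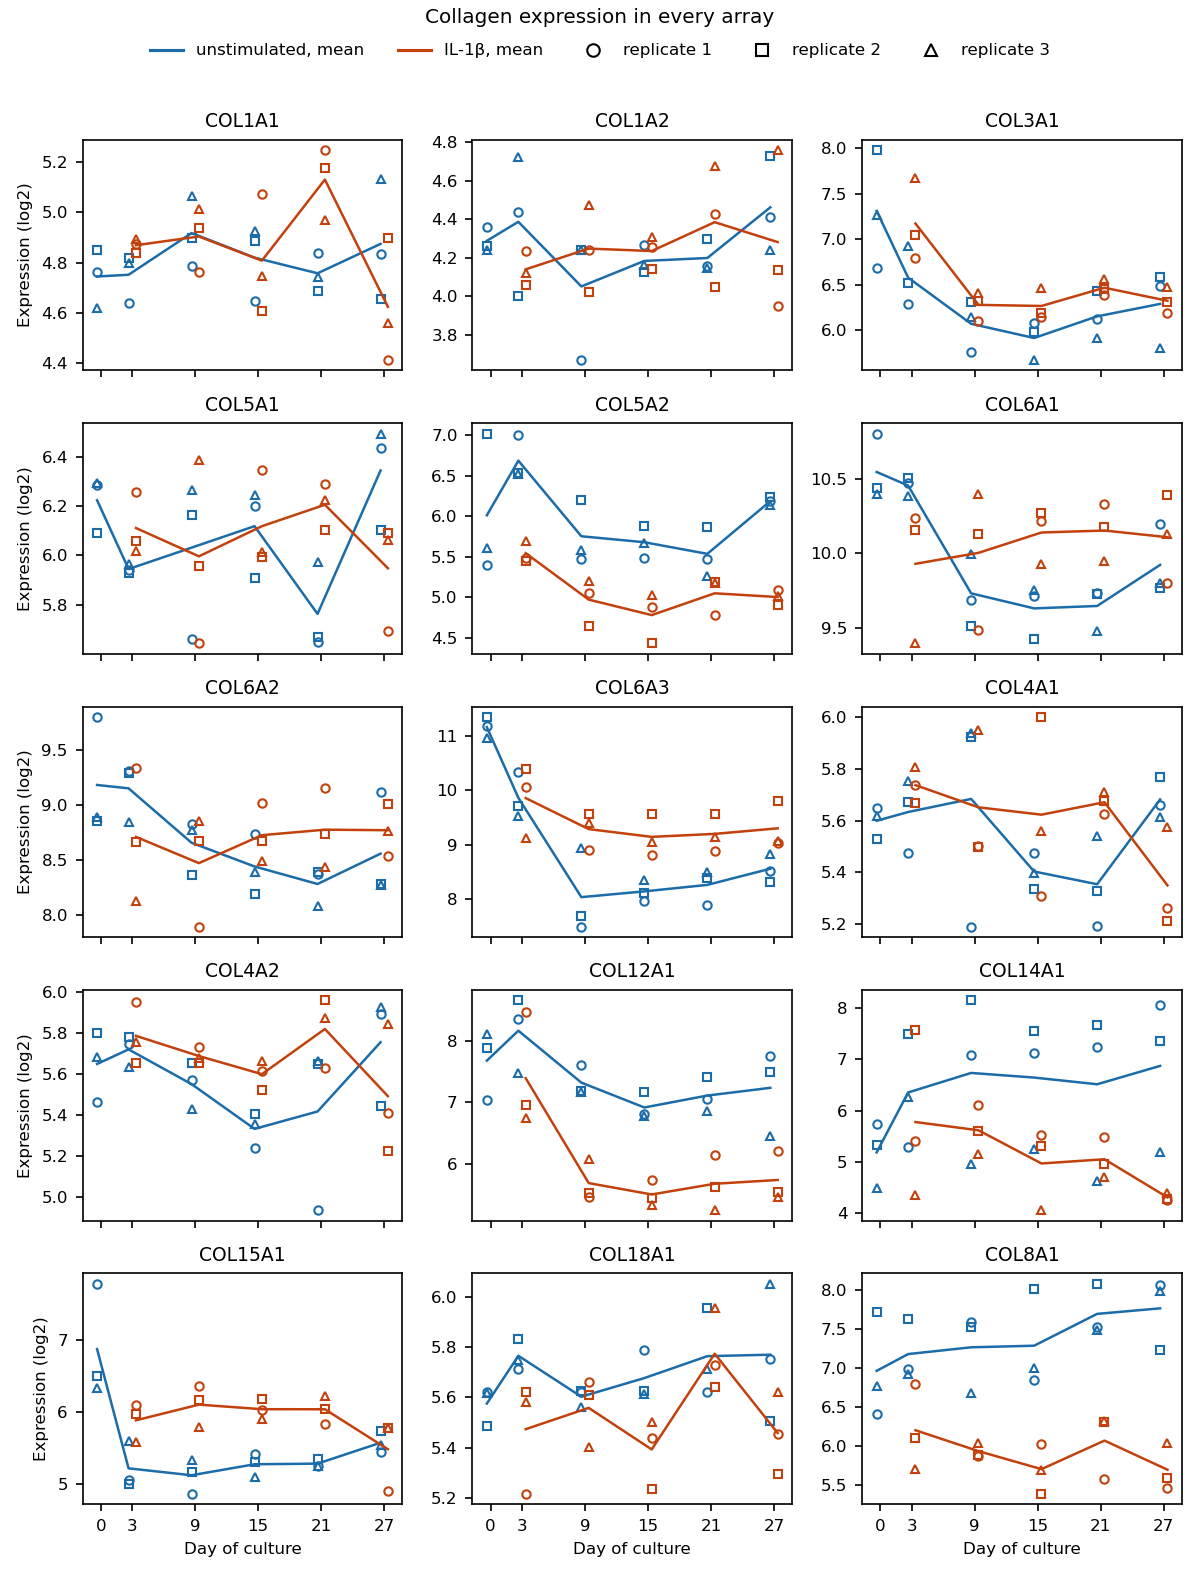
Expression (log2, vertical axes, each with its own range) of 15 collagen genes by day of culture (horizontal axes). Each point is 1 array, its shape marks the replicate number, and lines join group means; the stimulated arrays of COL8A1 and COL5A2 lie below the unstimulated ones at each day, and those of COL12A1 from day 9 on.

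Among the fibrillar genes 2 fell, 1 rose and 5 did not pass, where 15.3% of all probe sets were lower and 15.6% higher. Collagen V nucleates fibrils of type I, and COL5A2 encodes its second chain. COL5A2 values in unstimulated explants, replicates 1 to 3, were 5.40, 7.02 and 5.61 at day 0, 7.0, 6.53 and 6.51 at day 3, 5.48, 6.20 and 5.58 at day 9, 5.49, 5.87 and 5.67 at day 15, 5.47, 5.87 and 5.27 at day 21, and 6.18, 6.24 and 6.13 at day 27. Stimulated explants had 5.49, 5.45 and 5.69 at day 3, 5.06, 4.65 and 5.21 at day 9, 4.88, 4.43 and 5.03 at day 15, 4.78, 5.19 and 5.18 at day 21, and 5.08, 4.91 and 5.02 at day 27. The 3 stimulated arrays lay below the 3 unstimulated ones at each day, with the narrowest gap at day 21. COL5A2 fell by 0.90 ± 0.12 on average (adjusted p = 1.61e-06), and was lower in 15 of 15 pairs.

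COL27A1, a fibrillar collagen expressed in developing cartilage, fell by 0.41 ± 0.08 (adjusted p = 0.000287), and was lower in 14 of 15 pairs. It ranged from 6.56 through a median of 6.83 to 7.08 over the stimulated arrays and from 6.85 through 7.18 to 7.98 over the unstimulated ones. The highest of these, 7.98, was the array farthest out on the second component, without which the difference was -0.36 ± 0.07 (adjusted p = 0.000412).

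COL3A1 encodes the fibrillar collagen of skin, vessels and repair tissue. Its values in unstimulated explants, replicates 1 to 3, were 6.68, 7.98 and 7.27 at day 0, 6.29, 6.51 and 6.93 at day 3, 5.75, 6.31 and 6.14 at day 9, 6.08, 5.98 and 5.67 at day 15, 6.11, 6.43 and 5.91 at day 21, and 6.48, 6.58 and 5.80 at day 27. With IL-1β they were 6.80, 7.05 and 7.67 at day 3, 6.10, 6.32 and 6.41 at day 9, 6.14, 6.19 and 6.46 at day 15, 6.38, 6.45 and 6.56 at day 21, and 6.19, 6.30 and 6.47 at day 27. The groups overlapped at each day except day 15. COL3A1 rose by 0.30 ± 0.12 on average (adjusted p = 0.0488), close to the threshold, and was higher in 13 of 15 pairs. The call was lost without unstimulated day 27 replicate 3 (adjusted p = 0.0953) and without replicate 1 or 2 (adjusted p = 0.0584 and 0.0647). Without replicate 3 the difference was 0.14 (adjusted p = 0.516). It was also lost with trend and robust estimation (adjusted p = 0.0513) and with array weights (adjusted p = 0.0614).

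The type I chains did not pass. COL1A1 ranged from 4.41 through a median of 4.89 to 5.25 over the stimulated arrays and from 4.62 through 4.81 to 5.13 over the unstimulated ones, a difference of 0.04 ± 0.06 (adjusted p = 0.666). COL1A2 ranged from 3.95 through 4.24 to 4.76 and from 3.67 through 4.24 to 4.73, a difference of 0.00 ± 0.09 (adjusted p = 0.993). At day 21 COL1A1 differed by 0.37 (adjusted p = 0.102), and it passed there in 1 alternative, array weights, at 0.41 (adjusted p = 0.03). Both type I genes had means below the median probe set, where the array can understate a change. COL5A1, the other main chain of collagen V, ranged from 5.64 through 6.06 to 6.39 and from 5.65 through 6.10 to 6.49, and differed by 0.04 ± 0.08 (adjusted p = 0.778). COL5A3, at -0.08, did not pass. COL24A1, a minor fibrillar collagen, differed by -0.24 ± 0.11 (adjusted p = 0.0936), and passed with the replicate number as a block (adjusted p = 0.0185).

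Of the 5 beaded genes, only COL6A3 passed in the average, where 30.8% of all probe sets passed. Collagen VI forms the filaments of the pericellular matrix around chondrocytes, and the COL6A3 chain carries a C-terminal fragment known as endotrophin. COL6A3 values in unstimulated explants, replicates 1 to 3, were 11.17, 11.34 and 10.95 at day 0, 10.34, 9.71 and 9.53 at day 3, 7.50, 7.69 and 8.93 at day 9, 7.97, 8.12 and 8.35 at day 15, 7.89, 8.40 and 8.50 at day 21, and 8.53, 8.32 and 8.83 at day 27. The stimulated values were 10.06, 10.38 and 9.12 at day 3, 8.90, 9.56 and 9.39 at day 9, 8.82, 9.56 and 9.05 at day 15, 8.89, 9.57 and 9.14 at day 21, and 9.03, 9.79 and 9.08 at day 27. The groups overlapped at days 3 and 9, and the stimulated arrays were the higher ones at days 15, 21 and 27. COL6A3 rose by 0.78 ± 0.15 on average (adjusted p = 0.000128), and was higher in 13 of 15 pairs. Without replicate 2 the difference was 0.51 and did not pass (adjusted p = 0.0647).

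The other main chains of collagen VI did not pass. COL6A1 ranged from 9.40 through a median of 10.16 to 10.40 over the stimulated arrays and from 9.42 through 9.79 to 10.81 over the unstimulated ones, and differed by 0.19 ± 0.10 (adjusted p = 0.152). COL6A2 ranged from 7.89 through 8.67 to 9.34 and from 8.08 through 8.76 to 9.80, and differed by 0.07 ± 0.13 (adjusted p = 0.729). The minor chain genes COL6A5 and COL6A6 stood at -0.12 and -0.13 and did not pass.

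Of the 8 basement membrane zone genes 1 rose, 1 fell and 6 did not pass, where 30.8% of all probe sets passed. COL15A1 encodes a collagen that carries heparan or chondroitin sulfate chains and links basement membranes to fibrils. Its values in unstimulated explants, replicates 1 to 3, were 7.78, 6.51 and 6.34 at day 0, 5.06, 5.00 and 5.59 at day 3, 4.87, 5.17 and 5.33 at day 9, 5.42, 5.31 and 5.10 at day 15, 5.25, 5.35 and 5.25 at day 21, and 5.44, 5.74 and 5.54 at day 27. Stimulated explants had 6.10, 5.98 and 5.59 at day 3, 6.36, 6.16 and 5.79 at day 9, 6.04, 6.18 and 5.91 at day 15, 5.84, 6.05 and 6.23 at day 21, and 4.90, 5.78 and 5.78 at day 27. The stimulated arrays lay above the unstimulated ones at days 9, 15 and 21 and overlapped with them at days 3 and 27. COL15A1 rose by 0.62 ± 0.12 on average (adjusted p = 0.000202), and was higher in 13 of 15 pairs.

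COL18A1, the related gene whose product yields the angiogenesis inhibitor endostatin, fell by 0.18 ± 0.06 (adjusted p = 0.0268). It ranged from 5.22 through a median of 5.58 to 5.95 over the stimulated arrays and from 5.49 through 5.63 to 6.05 over the unstimulated ones, and was lower in 12 of 15 pairs. Over the 13 alternatives its adjusted p lay between 0.016 and 0.181. It was lost without replicate 1, 2 or 3 (adjusted p = 0.166, 0.181 and 0.0563) and without unstimulated day 27 replicate 3 (adjusted p = 0.0512). With quantile normalisation once more it was also lost, at -0.15 (adjusted p = 0.0698), and with centred arrays, at -0.13 (adjusted p = 0.0911).

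The chains of type IV collagen, the network of basement membranes, all fell short of the threshold. COL4A1 ranged from 5.21 through 5.63 to 6.0 over the stimulated arrays and from 5.19 through 5.58 to 5.94 over the unstimulated ones, and differed by 0.06 ± 0.08 (adjusted p = 0.646). COL4A2 ranged from 5.22 through 5.66 to 5.96 and from 4.94 through 5.64 to 5.93, and differed by 0.12 ± 0.08 (adjusted p = 0.253). COL4A3, COL4A4, COL4A5 and COL4A6, the chains of specialised membranes such as that of the kidney glomerulus, differed by -0.06, -0.11, -0.07 and -0.07.

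The transmembrane collagens, which are anchored in the cell surface and can be shed from it, gave 0 of 4 that passed. The share over all probe sets was 30.8%. COL13A1, COL17A1, COL23A1 and COL25A1 differed by -0.03, -0.03, 0.03 and 0.12. Their smallest adjusted p was 0.429, and 0 of 4 had an unadjusted p under 0.05. Of the remaining chains, COL26A1 and COL28A1, at 0.00 and -0.16, did not pass. Together, 23 of the 35 members passed in none of the 14 comparisons made. The share of all probe sets that passed in none was not computed, so this count has no background to be read against.

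Chains of 1 collagen type were also set against each other, as the difference between their probe sets within an array, which shows unequal change and no levels. The difference of COL6A3 to COL6A1 was 0.59 higher on average with IL-1β, above its pair in 13 of 15 pairs, and that of COL6A3 to COL6A2 was 0.71 higher, also in 13 of 15. The difference of COL5A2 to COL5A1 shifted by -0.93, below its pair in 15 of 15, and that of COL8A1 to COL8A2 stood at -1.08, below in 14 of 15. By contrast, the shift was 0.07 for COL4A2 against COL4A1 and -0.04 for COL1A2 against COL1A1. These shifts were not tested.

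By day, 1 of 35 members passed at day 3, where 3.32% of all probe sets passed and 1.54% were lower. It was COL5A2, at -1.14 ± 0.28 (adjusted p = 0.0166). At day 9 there were 4 (7.54% of all probe sets), with COL12A1 at -1.64, COL8A1 at -1.33, COL6A3 at 1.25 and COL15A1 at 0.98. At day 15 there were 5 (12.7%), with COL8A1 at -1.58, COL12A1 at -1.42, COL5A2 at -0.90, COL16A1 at -0.62 and COL6A3 at 1.00. Day 21 had 3, all lower (12.1% of all probe sets passed and 6.02% were lower), with COL8A1 at -1.62, COL12A1 at -1.44 and COL16A1 at -0.58. The 7 at day 27 were lower too (14.8% of all probe sets passed and 6.54% were lower). COL14A1 differed by -2.57 ± 0.86 there (adjusted p = 0.0437), COL8A1 by -2.07, COL12A1 by -1.50, COL5A2 by -1.18, COL27A1 by -0.85, COL16A1 by -0.77 and COL8A2 by -0.62. With the replicate block COL26A1, at -0.39, passed as well at day 27 (adjusted p = 0.0935 without and 0.0319 with the block).

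**Figure D3:**
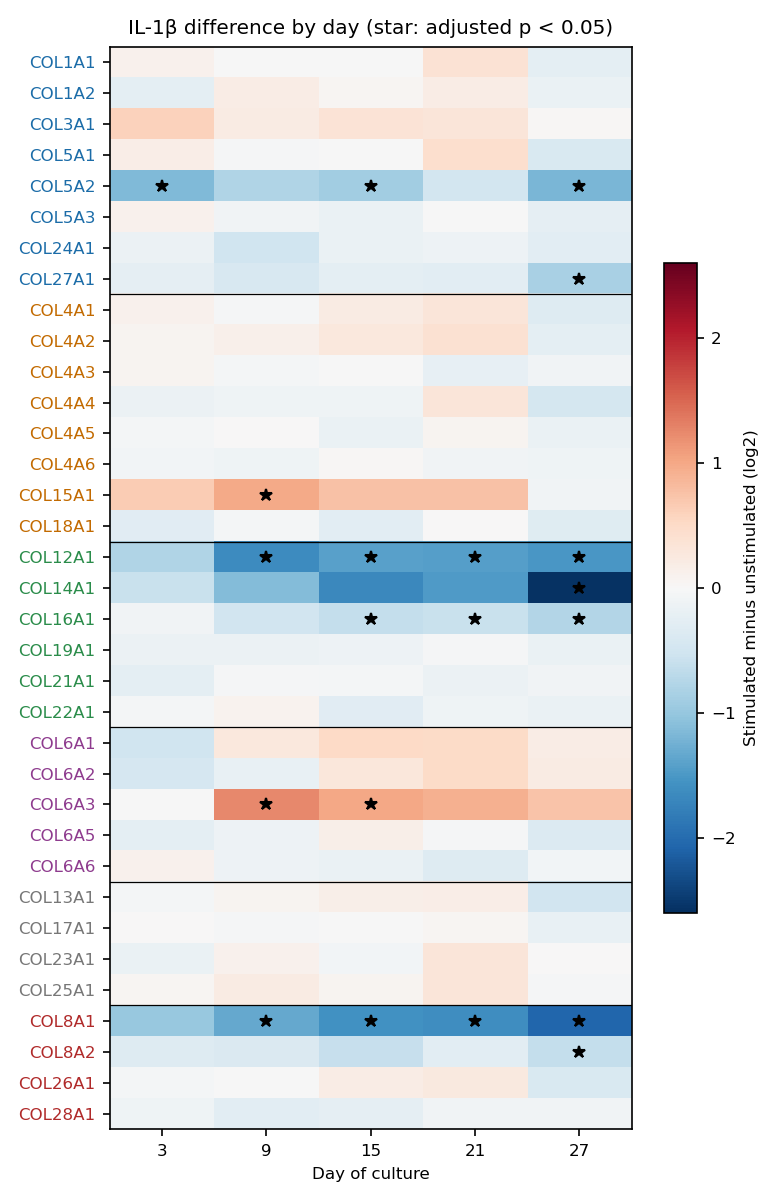
Difference between stimulated and unstimulated explants (log2, colour) for each collagen gene, in rows grouped by class, at each day of culture, in columns. Stars mark an adjusted p under 0.05; COL8A1 and COL12A1 passed at 4 days each, and the 7 genes that passed at day 27 were all lower.

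The single-day calls rested on few arrays. At day 27 COL14A1 did not pass with quantile normalisation once more (adjusted p = 0.0702), with centred arrays (0.0559), without replicate 1 (0.371) or without replicate 2 (0.212). COL8A2 passed there in 5 of 13 alternatives, with adjusted p of 0.0271 to 0.252, and did not pass without replicate 1, 2 or 3. COL27A1 was lost at day 27 without replicate 1 or 3, COL5A2 without replicate 3, and COL12A1 and COL16A1 without replicate 2. At day 15 COL5A2 and COL16A1 were each lost without replicate 1, 2 or 3 and with centred arrays. COL16A1 was lost at day 21 without replicate 1, 2 or 3 too. Without replicate 2, the number that passed was 0 at days 9 and 15, 1 at day 21 and 3 at day 27. Without replicate 1, days 3, 9, 15 and 27 gave 0, 1, 3 and 4 members, and without replicate 3 days 3, 15 and 27 gave 0, 3 and 4. With arrays centred on their medians, 2 of the 4 members that passed at day 15 were higher, and 5 passed at day 27, all lower. COL8A1 passed at days 21 and 27 under each of the 13 alternatives. The test of a change in the difference between days 3 and 27 passed in 0 of 35 members, against 1.1% of all probe sets, with 5 members at an unadjusted p under 0.05. The test of any variation of the difference between days in the limma fit passed in 0 of 35 (0.409% of all probe sets), with 3 at an unadjusted p under 0.05. The day at which a member passed is therefore not a tested difference between days.

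Unstimulated explants alone were compared over the 6 times. Variation over time passed in 4 of 35 members, against 4.66% of all probe sets. These were COL6A3 (F = 28.4, adjusted p = 1.23e-06), COL15A1 (F = 12.0, adjusted p = 0.000566), COL3A1 (F = 7.67, adjusted p = 0.00772) and COL6A1 (F = 7.03, adjusted p = 0.012). Without replicate 2 there were 2, COL6A3 and COL5A2 (F = 15.1, adjusted p = 0.00887). COL15A1, COL3A1 and COL6A1 were then lost (adjusted p = 0.0916, 0.349 and 0.398). Without replicate 3 there were also 2, COL6A3 and COL15A1. COL6A1 did not pass without replicate 1 or 3 either (adjusted p = 0.132 and 0.0555). COL6A3 lay between 10.95 and 11.34 at day 0, between 9.53 and 10.34 at day 3 and between 7.50 and 8.93 from day 9 on, so that each day 0 array was above all later ones.

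Between day 0 and day 27 of unstimulated culture 3 of 35 members passed, all lower, where 5.44% of all probe sets passed and 3.41% were lower. COL6A3 fell by 2.59 ± 0.33, or 6.03-fold (adjusted p = 2.1e-05), and passed under each of the 13 alternatives. COL15A1 fell by 1.30 ± 0.27 (adjusted p = 0.00369), and COL3A1 by 1.03 ± 0.26 (adjusted p = 0.0171). The COL15A1 call was lost without replicate 1, at -0.78 (adjusted p = 0.0647), and without replicate 2, at -1.57 (adjusted p = 0.0624). The COL3A1 call was lost without unstimulated day 27 replicate 3, at -0.78 (adjusted p = 0.147), and without replicate 2 or 3 (adjusted p = 0.256 and 0.274). With only the compared groups both were lost (adjusted p = 0.181 for COL15A1 and 0.262 for COL3A1). COL6A1 and COL6A2 stood at -0.62 each, short of the threshold (adjusted p = 0.0997 and 0.267), and the shift of COL6A3 against either was -1.97.

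Between days 0 and 3, COL15A1 alone passed, 1 of 35 members, where 0.401% of all probe sets passed and 0.293% were lower. It fell by 1.66 ± 0.27 (adjusted p = 0.00335), with day 0 values of 6.34 to 7.78 and day 3 values of 5.00 to 5.59. Replicate 1 was the highest at day 0, and the call was lost without replicate 1 and without replicate 2. COL6A3 differed by -1.29 ± 0.33 over these days (adjusted p = 0.0941). Between days 3 and 27 its difference of -1.30 ± 0.33 missed the threshold (adjusted p = 0.0521) and passed it with the replicate block (adjusted p = 0.0347). In that comparison 0 of 35 members passed without the block, against 1.01% of all probe sets, with 5 at an unadjusted p under 0.05.

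**Figure D4:**
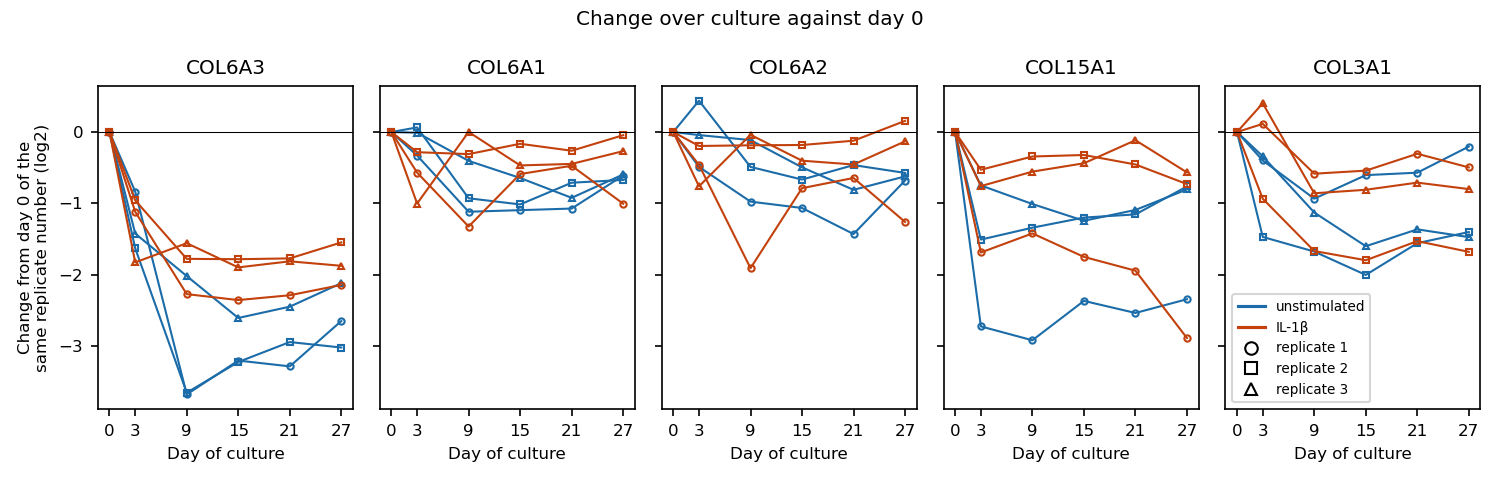
Change from the day 0 array of the same replicate number (log2, vertical axis) by day of culture (horizontal axis) for 5 collagen genes. Each line is 1 replicate number, stimulated or unstimulated; COL6A3 lies below 0 in every later array, and its unstimulated arrays had values of 7.50 to 8.93 from day 9 on against 10.95 to 11.34 at day 0.

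Within stimulated explants, COL12A1 was the member that varied over the 5 times (F = 8.36, adjusted p = 0.0286), 1 of 35 against 0.903% of all probe sets. Between days 3 and 27 it fell by 1.66 ± 0.38 (adjusted p = 0.0143), 1 of 35 where 3.28% of all probe sets passed and 1.81% were lower, from 6.74 to 8.48 at day 3 to 5.46 to 6.20 at day 27. Both calls were lost without replicate 1 and without replicate 2, and the first also without replicate 3. COL3A1 differed by -0.85 ± 0.26 between these days (adjusted p = 0.0687) and passed with the replicate block (adjusted p = 0.0414). The stimulated and unstimulated arrays of days 3 and 27 also enter the comparisons of treatment above, so these results are not independent of them.

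The genes of type II, IX, X and XI collagen gave another count in the same fit. Of these 7 cartilage collagen genes 6 fell, 0 rose and 1 did not pass, where 15.3% of all probe sets were lower. The median was -0.98 against -0.07 over the other collagens. COL11A1 fell by 1.91 ± 0.09 (adjusted p = 5.71e-15), COL9A3 by 0.98, COL9A2 by 0.87 and COL2A1 by 1.35. The difference between the 2 sets of collagen genes was not tested.

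Genes that make, bind or accompany collagens moved in both directions. Of 34 measured genes of collagen processing 18 fell, 7 rose and 9 did not pass, with a median of -0.25. Over all probe sets 30.8% passed, 15.3% lower and 15.6% higher. BMP1, the C-proteinase that trims procollagens, rose by 1.49 ± 0.08 (adjusted p = 1.55e-14), while SPARC, a collagen-binding chaperone, fell by 2.50 ± 0.14 (adjusted p = 1.02e-13). CRTAP, a subunit of the prolyl 3-hydroxylase complex, fell by 0.75 and PLOD2, a lysyl hydroxylase, by 0.55. Of 12 collagen receptors 5 fell, 4 rose and 3 did not pass, with a median of -0.12, against the same shares over all probe sets. The integrin chains ITGA11 and ITGA10 fell by 1.33 and 1.14 and the uptake receptor MRC2 by 0.78, while ANTXR1, which binds collagen VI, rose by 1.14.

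Of 20 basement membrane partners 7 rose, 6 fell and 7 did not pass, with a median of -0.05, where 30.8% of all probe sets passed. The laminin chain gene LAMB3 rose by 3.70 ± 0.16 (adjusted p = 5.2e-16) and LAMB2 fell by 1.36. PXDN, the peroxidasin that cross-links type IV collagen, rose by 1.45, and the perlecan gene HSPG2 by 0.90.

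**Figure D5:**
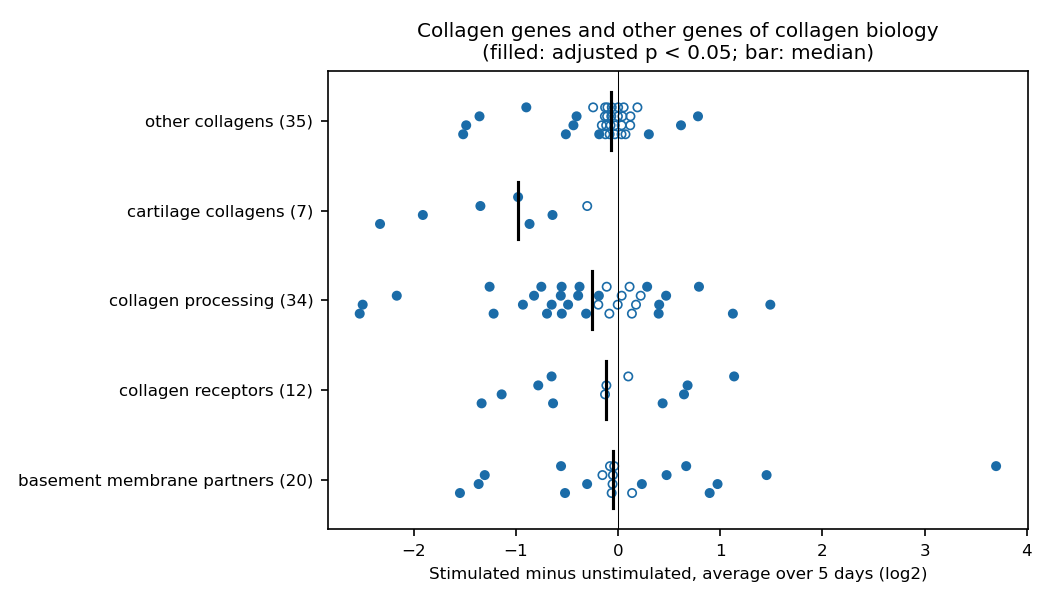
Difference between stimulated and unstimulated explants, averaged over 5 days (log2, horizontal axis), for the 35 collagen genes, the 7 cartilage collagens and 3 lists of genes of collagen biology, with the number of measured genes in brackets. Each point is a gene, filled where its adjusted p was under 0.05, and the black bar is the median, which was -0.07 for the 35 collagens and -0.98 for the cartilage collagens.

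Markers of other cells that an explant could hold were read in the same arrays, in the average over days, where 30.8% of all probe sets passed, 15.3% lower and 15.6% higher. Of 9 chondrocyte markers 5 fell and 0 rose, with CHAD, a cartilage matrix protein gene, at -3.88. Of 9 fibroblast or synovial lining markers 2 rose (PDGFRA, at 1.30, and PDPN, at 0.24) and 2 fell (PDGFRB, at -0.92, and THY1, at -0.83), and the mean over the list ran from 5.75 to 6.0 in stimulated and from 5.83 to 6.46 in unstimulated arrays. Of 9 endothelial markers 3 fell (VWF, at -1.08, PECAM1 and TEK) and 0 rose, with means of 4.22 to 4.72 and of 4.38 to 4.86, and 2 of the 9 had means above the median probe set. Smooth muscle or pericyte markers gave 1 of 7 higher (MYH11, at 1.92), 2 lower and 4 that did not pass, with a median of -0.12 over the list. Osteoblast or osteocyte markers gave 2 of 6 lower, macrophage or monocyte markers 1 of 7 higher and 1 lower, and lymphocyte markers 1 of 7 lower. Red cell and adipocyte markers gave 0 of 4 and 0 of 5. The part of these cells in the collagen differences was not tested.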

How the data were processed

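Gene expression was measured by Affymetrix microarray in 33 samples. Per the labels' protocols, cDNA was amplified from 2 ng of total RNA per sample. The deposited values are log2 expression per probe set, made by the authors with Affymetrix Expression Console, RMA and limma per the submitters' processing notes, which give no versions. No source used here states the log base; values of 1.50 to 13.9 fit log2. RMA evens out distributions between arrays, so a change shared by most genes is lost, and changes near the lowest signals are compressed. Scan batches were not analysed here, and with no genome no positions are given.

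Groups came from the sample titles. The deposited values were fitted in limma 3.58.1 (R 4.3.3) with 1 mean per group over all arrays, 22 residual degrees of freedom and moderated tests, two-sided, with Benjamini-Hochberg adjustment over 25923 probe sets. The fit was tested on simulated data. The groups shared 1 estimate of the spread because 3 arrays a group give few residual degrees of freedom. An exact permutation test of 3 against 3 arrays, which allows no p under 0.1, was not run. Members, lists and rules were chosen with earlier results of these data known. The text names every member, gives array values or ranges, and names up to 4 genes with the smallest p per pathway list. Genes were named from the platform annotation of 16789 single-symbol probe sets, with several symbols on 343 and none on 8791.

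Replicate numbers go with 1 prefix each in the sample descriptions and were taken as horses, which no label states in words. Deviations from group means correlated at a median of 0.164 over 165 pairs of the same number and -0.0841 over 330 others. Because deviations cancel within a group, the second value is tied to the first and adds no separate evidence. The correlation was 0.0781 or more in 15 of 15 same-day pairs, and 33 of 33 arrays matched their own number best. A fixed replicate block, which leaves 20 residual degrees of freedom, was an alternative, as were a random block, brighter probe sets, other scalings, trend and robust estimation, array weights, left-out arrays, only the compared groups and the mean over probe sets of a symbol.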

Additional observations from a re-analysis of the deposited data

How the results depend on the processing

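Of the 11 collagen genes that passed in the average over days, 7 passed under all 13 alternatives and 4 did not (COL14A1, COL6A3, COL3A1 and COL18A1), and 0 results reversed. Brighter probe sets only and the mean over probe sets of a symbol left the values of these 11 unchanged. Each had 1 probe set, above the median, so only the moderation and the adjustment could differ there. The number that passed in the average was 12 with the replicate block. Leaving out a replicate number or unstimulated day 27 replicate 3 gave 7 to 9 in the average, 0 to 1 at day 3, 0 to 4 at day 9, 0 to 5 at day 15, 1 to 4 at day 21 and 3 to 6 at day 27. It gave 2 to 4 for variation over unstimulated times, 0 to 1 over stimulated times, 0 to 1 for unstimulated day 3 against day 0, 1 to 2 for day 27 against day 0, and 0 to 2 for stimulated day 27 against day 3. At day 21 the count moved from 3 to 5 with brighter probe sets only, to 6 with array weights and to 5 with only the compared groups. With only the compared groups it was 0 for stimulated times, 0 for unstimulated day 3 against day 0, 1 for day 27 against day 0 and 0 for stimulated day 27 against day 3. Unstimulated day 27 against day 3 moved from 0 to 1 with the replicate block, the random block, brighter probe sets, trend and robust estimation, or array weights. Stimulated day 27 against day 3 moved from 1 to 2 with the replicate block, the random block, brighter probe sets, array weights, or without unstimulated day 27 replicate 3. Fewer probe sets or arrays are tested where brighter ones, compared groups or left-out arrays are used; for the other settings the cause was not tested. The block changed no other call among members beyond those named. Among all member results, 85 calls were lost and 34 gained over the alternatives. Over all probe sets, 5239 to 8873 were called in the average against 7991. By day they were 217 to 1166 against 860 at day 3, 638 to 2530 against 1954 at day 9, 1293 to 3994 against 3284 at day 15, 1548 to 4322 against 3144 at day 21 and 1850 to 4556 against 3833 at day 27. The range was 271 to 1838 against 1208 for unstimulated times, 3 to 823 against 234 for stimulated times, 1 to 496 against 284 for the change between days 3 and 27 and 1 to 233 against 106 for any variation of the difference. It was 0 to 179 against 104 for unstimulated day 3 against day 0, 4 to 447 against 261 for day 27 against day 3, 195 to 1973 against 1410 for day 27 against day 0, and 20 to 1527 against 849 for stimulated day 27 against day 3. Centring arrays on their medians moved the median over all probe sets at day 27 from -0.06 to 0.05, and that of the change in the difference between days 3 and 27 from -0.04 to 0.07. It moved the higher and lower calls from 1760 and 1524 to 2034 and 1123 at day 15, from 2138 and 1695 to 2806 and 1217 at day 27, from 526 and 884 to 331 and 1172 for unstimulated day 27 against day 0, from 28 and 76 to 14 and 94 for day 3 against day 0, from 117 and 167 to 131 and 113 for the change in the difference and from 381 and 468 to 445 and 329 for stimulated day 27 against day 3. Members below the median signal may have differences that these arrays cannot show.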

Other observations

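Genes that act on collagen also moved within unstimulated culture, from day 0 to day 27, where 5.44% of all probe sets passed and 3.41% were lower. Of 34 measured genes of collagen processing 8 fell, 1 rose and 25 did not pass. The lysyl oxidase family genes LOXL3 and LOXL4, which cross-link collagen and elastin, fell, at -2.97 ± 0.31 (adjusted p = 1.52e-06) and -1.95 ± 0.23 (adjusted p = 8.65e-06). P4HA3, a prolyl 4-hydroxylase subunit, fell by 1.66 and PLOD3, a lysyl hydroxylase, by 1.23, while PLOD1 rose by 0.74. Of 12 collagen receptors 4 fell and 0 rose, with the integrin chain ITGB1 at -1.12 ± 0.16 (adjusted p = 5.23e-05). Of 20 basement membrane partners 2 rose, AGRN and LAMA4, and 2 fell, PXDN at -1.56 and LAMB3 at -1.37. Of the 7 cartilage collagens 1 rose, COL9A3 at 0.85, and 0 fell. The genes named here were chosen after their values were seen.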
